A study of Mus musculus with 9 samples.

Results

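Cytoplasmic ribosomal protein genes encode the protein subunits of the ribosome that works in the cytosol, and they were selected by symbol. A gene was a member if its symbol was Rpl or Rps followed by a digit, Rplp followed by a digit, or Rpsa. Symbols starting Rps6k, which name kinases, and symbols containing -ps, which name pseudogenes, were left out. Of 7738 genes listed in any file, 82 met the rule, all 82 of them among the 7676 genes of the inbred wild type files. In the shorter mixed wild type and conditional knockout files, 12 of 190 genes met it, and these 12 were present in all 9 libraries.

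A ribosome consists of a small subunit, which reads the messenger RNA, and a large subunit, which joins the amino acids, and each holds ribosomal RNA and one copy of most of its proteins. The stalk proteins encoded by Rplp0, Rplp1 and Rplp2 form a flexible arm on the large subunit that recruits the elongation factors. Messenger RNAs of ribosomal protein genes begin with a tract of pyrimidines (C or T), through which their translation is tied to the kinase mTOR and the RNA-binding protein Larp1. The genes have left many processed pseudogenes in mammalian genomes, which makes their sequence reads hard to place. The lens epithelium contains ribosomes, and mature lens fibre cells lose them together with their nuclei and other organelles.

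The lenses came from mouse embryos at 15.5 days post conception, with 30 lenses in each library and 3 libraries in each of 3 groups. The inbred wild type group was of strain C57Bl/6<har>. The mixed wild type group was of mixed strain background and carried Sip1 flox/flox without Cre. The conditional knockout (cKO) group was of mixed strain background and carried Sip1 flox/flox and MLR10Cre, a transgene through which Cre recombinase is made in cells of the lens. Lenses of these mixed-background groups therefore shared the floxed alleles of Sip1, the transcription factor gene also called Zeb2, and differed in the transgene. The labels call the libraries independent biological replicates. A pool of this size takes in several embryos, so that each value is a mean over animals, and nothing in the labels gives sex or litter.

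Values are RPKM, the reads of a gene scaled to the length of its exons and to the size of the library. The steps in low RPKM values give the depth, which was 14141600 to 16687900 reads in inbred wild type, 38674600 to 44070800 reads in mixed wild type and 25872800 to 27408400 reads in cKO. All 6 lens fibre markers and all 3 lens epithelium markers checked were in the inbred files, and none of the 4 retinal, 4 pigment cell, 3 leukocyte or 3 neuronal markers was. The lowest mean level listed there was 2 RPKM, so a marker that is not listed may still be present under that level. Other types were listed in the inbred files too. Of 8 erythroid markers, 6 were listed, at a sum of 1069 to 1114 RPKM. At lower levels were 3 of 4 endothelial markers (Cdh5, Kdr and Tek), at a sum of 8.88 to 11.3 RPKM. The mesenchymal marker Pdgfra, 1 of 4 checked, was at 20.4 to 25.4 RPKM. The short files held none of the 9 lens markers, so the tissue label of those groups was not checked with them. Each gene of the short files differed between mixed wild type and cKO by at least 2.505-fold in the authors' normalized expression values, a second deposited measure. By RPKM the smallest difference was 1.13-fold. Counts of changed genes there thus describe a list made on these same libraries and are no independent evidence. Nothing about the other 70 members follows from the 12.

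In the inbred wild type lens the ribosomal protein genes were among the most abundant messages. Their median was 242 RPKM in replicate 1, 215 RPKM in replicate 2 and 212 RPKM in replicate 3, with a mean of 223 ± 16.4 RPKM (SD, n = 3). The median of all listed genes was 7.63 ± 0.23 RPKM. Of the 82 genes, 30 ranked in the top 100 of the list and 77 in the top 1000, and 60 exceeded 100 RPKM, or 19.5% of the 308 listed genes at that level. Together they held 4.74% ± 0.19 (SD, n = 3) of the summed RPKM, and 12.2% when the crystallins, the structural proteins of the lens, were left out of the sum. As a share of reads, which is not scaled by length, they held 3.48% ± 0.20.

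The rule captured nearly the whole set of ribosomal proteins. Of the 77 canonical proteins that its symbols can name, 76 were listed. The exception, Rpl41, which encodes the shortest ribosomal protein, was not analysed here. The other 6 members were relatives of canonical genes (Rpl7l1, Rpl22l1, Rpl36al, Rps27l and Rps4y2) and Rps19bp1, which encodes a protein that binds Rps19 and is no ribosomal protein itself. These 6 held 1.10% ± 0.04 (SD, n = 3) of the members' summed RPKM. The 45 members of the large subunit held 46.0% ± 0.56, the 33 of the small subunit 44.5% ± 0.18 and the 3 stalk genes 9.39% ± 0.56.

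The stalk gene Rplp1 was the highest member, at 1324, 1190 and 1307 RPKM in inbred replicates 1, 2 and 3. Its partner Rplp2, whose protein pairs with that of Rplp1, was at 245, 216 and 243 RPKM, so that Rplp1 exceeded it 5.43 ± 0.07 times (SD, n = 3) as deposited. With reads divided by the length of the principal annotated transcript the ratio was 2.51 ± 0.03. Rplp0, the base of the stalk, was at 733, 730 and 769 RPKM. These transcripts had 499 bases for Rplp1 and 964 bases for Rplp2. Mean reads, which are not scaled by length, were 9898 for Rplp1 and 7630 for Rplp2. Rplp1 was thus above Rplp2 under both lengths, by an amount that depended on the length used.

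In the small subunit Rps26, whose protein contacts the messenger RNA, led with 1067, 985 and 959 RPKM. Also high were Rps15 at 713 ± 34.7 RPKM (SD, n = 3) and Rpsa, also known as the laminin receptor, at 611 ± 26.8 RPKM. Rps6, the protein that S6 kinases phosphorylate downstream of mTOR, was in the middle of the order at 226, 193 and 225 RPKM. In the large subunit Rpl32 led with 1005, 891 and 848 RPKM. Rpl4 followed at 754 ± 33.4 RPKM, Rpl8 at 738 ± 35.3 RPKM and Rpl3, whose protein reaches to the peptidyl transferase centre, at 606 ± 11.7 RPKM. Neighbours in this order, such as Rpl4, Rplp0 and Rpl8, differed by less than the spread between their replicates.

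The lower end held both relatives and canonical genes. Rpl7l1 was at 6.57 ± 0.33 RPKM, Rps4y2 at 6.63 ± 0.44 RPKM and Rps19bp1 at 14.7 ± 0.66 RPKM (SD, n = 3). Of the canonical genes Rpl13 was lowest, at 9.50, 5.92 and 8.36 RPKM, followed by Rpl21 at 23.6 ± 1.46 RPKM and Rpl10 at 40.8, 33.3 and 25.1 RPKM. Rpl24 was at 39.96 ± 3.57 RPKM and the relative Rps27l at 37.7 ± 3.15 RPKM. The canonical genes in this range encode proteins of every ribosome, and their RPKM were far under those of the leading genes.

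Relatives differed in their level against the gene they resemble. Rps4x exceeded Rps4y2 47.0 ± 3.17 times and Rpl7 exceeded Rpl7l1 41.5 ± 3.44 times (SD of the ratio over libraries, n = 3). Rps27 exceeded Rps27l, a gene that p53 activates, 3.10 ± 0.07 times. Rpl22 and Rpl22l1 had a ratio of 1.19 ± 0.16, and Rpl36a and Rpl36al one of 1.05 ± 0.04. The sizes depended on the gene length: per principal transcript the ratios were 95.8 ± 7.94 for Rpl7, 1.90 ± 0.04 for Rps27, 1.91 ± 0.25 for Rpl22 and 1.40 ± 0.05 for Rpl36a. Reads that fit both genes of such a pair could also be split between them, and these ratios are uncertain for both reasons.

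**Figure D1:**
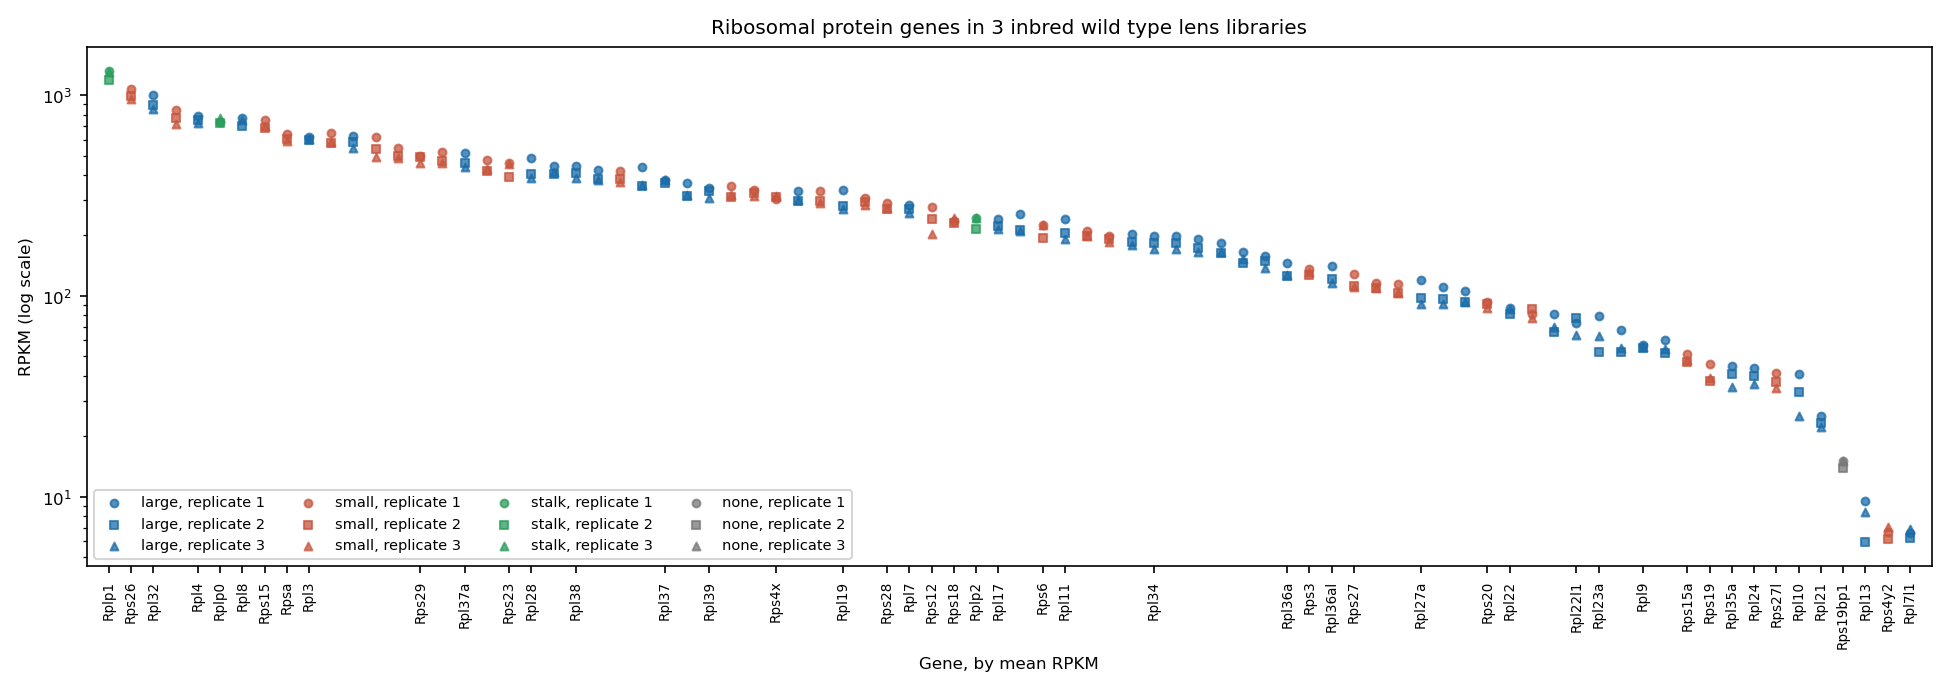
RPKM (log scale) of the 82 genes in the 3 inbred wild type libraries, ordered by mean, with the genes named in the text labelled; colours give the subunit (none for Rps19bp1) and marker shapes the library. Levels run from 1274 RPKM for Rplp1 to 6.57 RPKM for Rpl7l1, and circles (replicate 1) mostly lie on top.

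The members varied together between the inbred libraries. In 75 of 82 genes (91.5%) replicate 1 was the highest of the 3 libraries, against 29.6% of all listed genes. The median member was higher in replicate 1 than in replicate 2 by 0.14 and than in replicate 3 by 0.16 on the log2 scale, where the median of all listed genes differed by -0.01 and -0.07. The 4.95% of summed RPKM in replicate 1 compared with 4.56% in replicate 2 and 4.73% in replicate 3. Replicates have no order, and the labels name no batch, so this is a description of 3 libraries.

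The median coefficient of variation was 6.73% for the 82 members, 7.21% for all listed genes and 5.16% for 158 other genes between the quartiles of the canonical members' RPKM. The members thus varied less than the median listed gene and more than the median gene of like level. The most variable were Rpl10 (23.7%), Rpl13 (23.1%), Rpl23a (20.6%), Rps12 (14.8%) and Rpl27a (14.5%). Rpl23a was at 79.2, 52.7 and 63.0 RPKM and Rps12 at 276, 242 and 204 RPKM. The steadiest were Rps4x (1.46%), Rpl37 (1.65%), Rpl9 (1.73%), Rpl3 (1.94%) and Rplp0 (2.92%). Of these Rps4x, at 305, 312 and 314 RPKM, and Rplp0 did not share the high value of replicate 1.

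The gene length used for RPKM affected the order of the members. The authors' exon lengths ranged from 345 bases for Rps27 to 6262 bases for Rps15a. Set against the principal transcript of each gene in the GENCODE M21 annotation, exon lengths were at least 2 times as long in 31 of 81 members with a match, and the median ratio was 1.67, compared with 1.13 over all listed genes. Rpl24, a gene of the large subunit, had 6029 bases of exon and a principal transcript of 677 bases, and Rpl35a had 3526 and 518 bases. Some principal transcripts were long themselves, with 5179 bases for Rps15a and 3706 bases for Rps20. Values per principal transcript thus also depend on the transcript chosen.

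With reads divided by the length of the principal transcript, Rpl24 went from 39.96 to 356 and Rpl35a from 40.2 to 274 RPKM. Rps18 moved from rank 39 to rank 2 at 1052 RPKM, and Rps28 from rank 36 to rank 3 at 1035 RPKM, while Rplp1 stayed first at 1264 RPKM and Rpl13 was still the lowest canonical gene at 23.9 RPKM. Rpl24, Rps18, Rps28 and the longest and shortest genes are named here after their values were seen. The ratio of the highest to the lowest canonical gene was 161 as deposited and 52.9 by principal transcript, and the coefficient of variation across the 76 canonical genes was 81.4% and 60.8%. Across these genes, which are no independent replicates, Spearman's correlation of RPKM with exon length was -0.67. Length enters both measures.

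**Figure D2:**
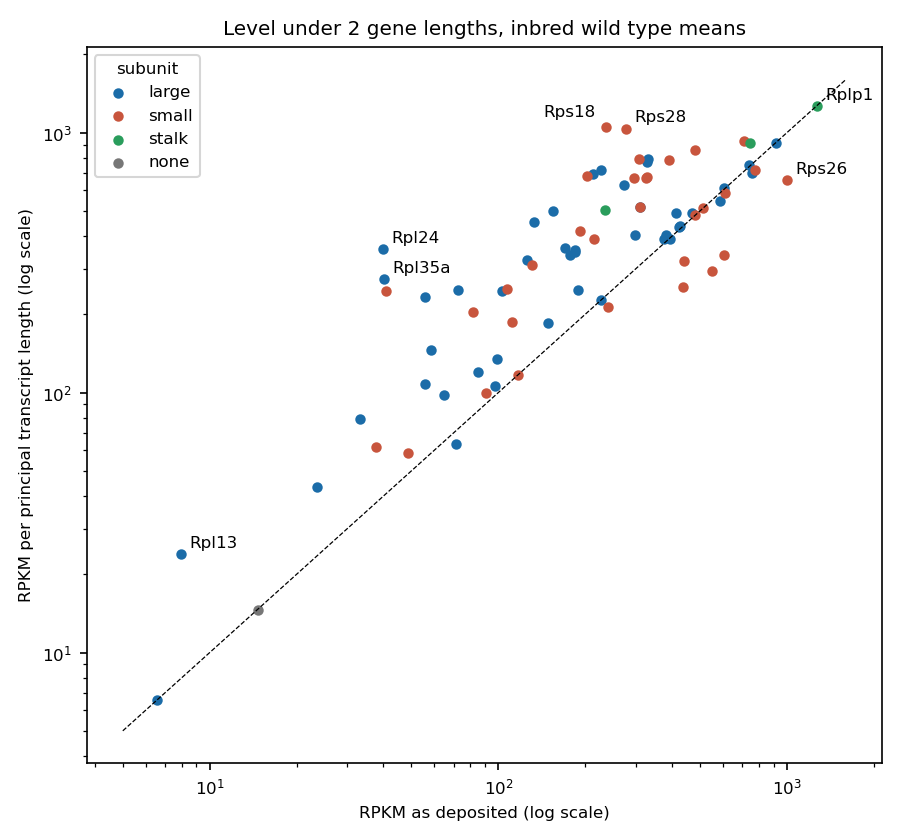
Mean inbred RPKM of 81 genes as deposited (horizontal) and recomputed per principal transcript length (vertical), both log scales; the dashed line marks equal values. Points above the line, such as Rpl24 at 39.96 and 356 RPKM, have exon lengths longer than the principal transcript.

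The second deposited measure gave the members far lower values than their reads would. The normalized expression value per read was set at 100% for the median listed gene of each library. For the 82 members the median was 17.8%, with 68 of 82 (82.9%) under 50%, while 7.17% of all 7676 listed genes were under 50%. Among the other genes between the lower and upper quartiles of the canonical members' RPKM the median was 78.7%.

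The lowest members were Rps4y2 (0.41%), Rps6 (0.55%), Rpl23a (0.79%), Rpl19 (0.86%) and Rps23 (0.87%). Rps6 had normalized values of 48.8, 39.9 and 49.1 in the inbred libraries at RPKM that correspond to a mean of 5346 reads. The highest were Rps19bp1 (111%) and Rps27l (89.0%). Ranked per RPKM, a ratio that also moves with exon length, the lowest were Rps4y2, Rps27 (1.30% per read), Rps23, Rpl23a and Rps6, and the highest Rps3 (82.1% per read), Rps20 (77.7% per read) and Rps15a (36.5% per read). The normalization is not described in the sources used here, and the values have no stated unit.

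Most members share sequence with other genes. For each gene, the 31-base words of its principal transcript were looked up, on both strands, in transcripts of all other genes of GENCODE M21, pseudogenes among them. A median of 61.5% of the words of 81 members occurred elsewhere, compared with 0.59% for all listed genes, and a median of 48.0% occurred in transcripts annotated as pseudogenes. Rpl8 shared 9.99% and Rps19bp1 0%, whereas Rpl19 shared 79.9% and Rps6 84.9%. Over 76 canonical genes, which share their libraries and annotation, Spearman's correlation between shared words and normalized value per read was -0.55. Over 7461 other listed genes the same correlation was -0.39, so its direction was not particular to the members. Why the 2 deposited measures differ was not tested.

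**Figure D3:**
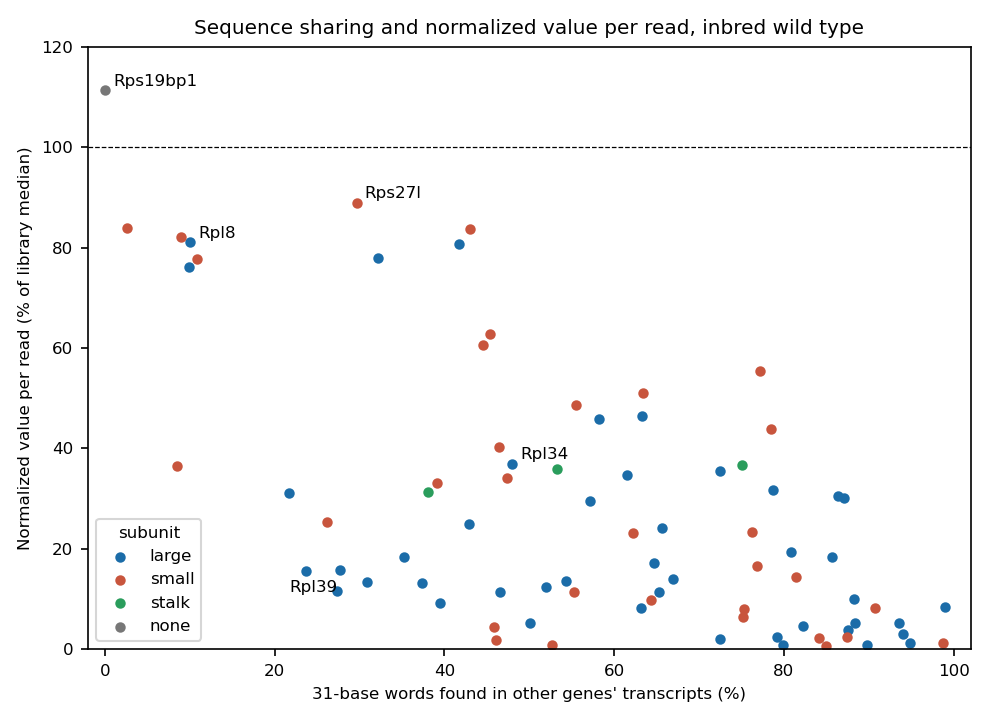
Normalized expression value per read, as a percentage of the library median (dashed line at 100%), against the percentage of 31-base words found in other genes' transcripts, for 81 members in inbred wild type. Most genes with few shared words, such as Rpl8 at 9.99% and 81.2%, sit high, and Rps15a at 8.53% and 36.5% does not. The share of Rps15a is over the words of a principal transcript of 5179 bases, where that of Rpl8 has 851 bases. No gene over 80% shared is above 30.5%.

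Other genes of the translation machinery were described by lists. All 26 translation factor genes were in the inbred files, with a median of 94.2 RPKM, led by the elongation factor genes Eef1a1 at 2446 ± 74.3 RPKM and Eef2 at 783 ± 84.1 RPKM (SD, n = 3). All 26 genes of ribosome assembly were listed at a median of 15.9 RPKM, with the nucleolar genes Npm1 at 113 ± 12.9 RPKM and Fbl at 91.0 ± 7.57 RPKM the highest. Mitochondrial ribosomal protein genes, 76 by symbol, had a median of 11.99 RPKM, the highest being Mrpl52 at 76.0 ± 7.83 RPKM. Of 9 regulators, 8 were listed, among them Mtor at 22.5 ± 1.92 RPKM, Larp1 at 28.8 ± 3.69 RPKM and Rps6kb1, the S6 kinase gene, at 3.69 ± 0.11 RPKM. Fau, which encodes a ribosomal protein fused to a ubiquitin-like domain and lies outside the symbol rule, was at 582 ± 45.0 RPKM. The median normalized value per read was 76.6% for translation factors, 99.1% for assembly genes and 101% for mitochondrial ribosomal proteins. No gene of these lists was in the short files, and none could be compared with cKO.

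The start regions of the members were read from RefSeq (build GRCm38.p6), in windows from 250 bases before to 50 bases after each annotated start. Of 76 canonical genes, 56 had an entry, with 66 windows, and of the 12 genes of the short files 10 did, Rpl17 and Rps29 being without one. A run of at least 8 pyrimidines touching the 10 bases on either side of the start was present in 42.4% of the members' windows and in 13.7% of all 32851 windows. The letters CTTTCC, which can lie within such a run, occurred on either strand in 48.5% of the members' windows and 26.6% of all windows. CCGGAAG, the core of ETS family sites, occurred in 36.4% and 8.86% of these windows. AAGATGGC, part of the motif of the factor YY1, occurred in 10.6% and 2.75%, and GGGCGG, the core of the SP1 box, in 60.6% and 35.7%. Some genes had several windows. Counted per gene, CCGGAAG was in 41.1% of 56 canonical genes and 9.93% of all 27025 genes. AAGATGGC was in 8.93% and 3.19% of these genes, and GGGCGG in 60.7% and 38.2%. A match of letters is a description and not a binding site.

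The 15 bases before and the 15 bases from the start are printed for 8 of the 12 genes, since the tract at the start is the feature by which their translation is known to be controlled. Capitals mark the longest pyrimidine run near the start, and where a gene had several windows the one with the longest run was taken. The first group has runs of at least 8 bases.
Rpl35a (chr16:33056467-33056496, plus strand): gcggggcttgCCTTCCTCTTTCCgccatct
Rpl34 (chr3:130730323-130730352, minus strand): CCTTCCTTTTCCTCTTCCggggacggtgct
Rpl28 (chr7:4792950-4792979, plus strand): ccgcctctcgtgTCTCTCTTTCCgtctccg
Rpl38 (chr11:114668565-114668594, plus strand): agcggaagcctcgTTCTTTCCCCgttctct
Rpl39 (chrX:37085208-37085237, minus strand): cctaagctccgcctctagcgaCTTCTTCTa
Rpl19 (chr11:98026909-98026938, plus strand): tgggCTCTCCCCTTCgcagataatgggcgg
Rps28 and Rpl11 had shorter runs, of 4 and 3 bases.
Rps28 (chr17:33824548-33824577, minus strand): ggtaccgcgtgcggTCTCgcgagagcgaaa
Rpl11 (chr4:136053379-136053408, minus strand): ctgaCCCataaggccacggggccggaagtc

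Of the 10 genes with windows, 6 had a run of at least 8 pyrimidines, as did 48.2% of the 56 canonical genes and 15.8% of all 27025 genes. The run of Rpl34, 20 bases long, starts before the printed stretch. Genes with and without a long run occur among those that fell most in the knockout, as Rpl35a and Rps28 show, and the annotated starts limit how closely a tract can be placed.

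Setting cKO against mixed wild type asks how loss of Sip1 changes expression on a shared background. All 12 ribosomal protein genes were lower in cKO, and 11 were called lower at an adjusted p under 0.05 by limma. The background has to be read beside this count: 99.5% of the 190 listed genes were called, 45.3% as lower and 54.2% as higher in cKO. The libraries of the groups did not overlap in any of the 12 genes, nor in any other gene of the list (100%). A called fall of at least 0.5 on the log2 scale was found in 11 members and in 43.2% of the list. The members' median log2 fold change was -0.92 and no member was called higher. The median of all 190 genes was 1.37, and that of the 128 genes found in all 9 libraries, as the 12 are, was -1.03. When only these 128 genes were fitted, 84 were called lower and 43 higher in cKO, so falls were common among them. By RPKM, 2 members fell by at least 2.5-fold. Under quantile normalization over the 190 genes, where the median of all genes became 0.19 and that of the members -0.25, 9 members were called lower, Rpl19 and Rpl37a higher, and Rpl36a was not called (adjusted p 0.514 by limma). Under median centring, where these medians were 0.49 and -1.80, all 12 were called lower. The size of the members' falls thus depended on the scaling.

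Rpl35a, a large subunit gene mutated in Diamond-Blackfan anaemia, fell most. It measured 60.6, 67.0 and 59.8 RPKM in the mixed wild types against 10.7, 15.5 and 14.9 RPKM in cKO. The 3 cKO libraries lay far under the 3 controls, a 4.55-fold difference (log2 difference -2.16 with SE 0.13, adjusted p 2.83e-08 by limma). Only 3 of the 190 genes had a more negative log2 fold change. Its depth in cKO was 1038 to 1411 reads.

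Rps28, a small subunit gene whose protein sits where the messenger RNA leaves the ribosome, measured 269, 355 and 323 RPKM in the mixed wild types against 105, 106 and 108 RPKM in cKO. The groups did not overlap, the cKO libraries were nearly equal, and the fall was 2.96-fold (log2 difference -1.55 with SE 0.10, adjusted p 6.85e-08 by limma). Rpl34 measured 198, 226 and 222 RPKM in the mixed wild types against 109, 93.2 and 93.3 RPKM in cKO, a fall of 2.18-fold (log2 difference -1.12 with SE 0.09, adjusted p 4.02e-07 by limma).

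A second group of 6 genes fell by similar amounts, between 1.78-fold and 1.96-fold. It comprised Rpl28, which budding yeast lacks, Rpl17 and Rpl39, whose proteins line the exit tunnel, Rps29, Rpl11, which binds the p53 regulator Mdm2, and Rpl38, the gene of the Tail-short mutation. Rpl28 measured 394, 482 and 461 RPKM in the mixed wild types against 227, 222 and 232 RPKM in cKO. Rps29, the highest of the 12, measured 563, 628 and 597 RPKM in the mixed wild types against 323, 307 and 311 RPKM in cKO. Their log2 fold changes ran from -0.83 for Rpl38 (adjusted p 2.99e-06 by limma) to -0.97 for Rpl28 (adjusted p 1.59e-06 by limma), with standard errors of 0.08 to 0.09. Under quantile normalization the 6 ranged from -0.19 for Rpl38 to -0.35 for Rpl28, and under median centring from -1.72 for Rpl38 to -1.85 for Rpl28, each called lower.

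The smallest changes were in Rpl36a, Rpl37a and Rpl19. Rpl36a, an X-linked gene, measured 147, 196 and 175 RPKM in the mixed wild types against 107, 115 and 112 RPKM in cKO (log2 difference -0.62 with SE 0.11, adjusted p 0.000161 by limma). Rpl37a measured 431, 495 and 492 RPKM in the mixed wild types against 332, 323 and 331 RPKM in cKO (log2 difference -0.52 with SE 0.09, adjusted p 0.000156 by limma). Rpl19, often used as a reference gene, measured 324, 362 and 329 RPKM in the mixed wild types against 312, 282 and 303 RPKM in cKO. The lowest mixed wild type library lay above the highest cKO library, and the log2 fold change of -0.18 was not called (95% interval -0.37 to 0.01, adjusted p 0.0666 by limma). Without mixed wild type replicate 1 it was called lower (log2 fold change -0.21, adjusted p 0.0287 by limma).

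**Figure D4:**
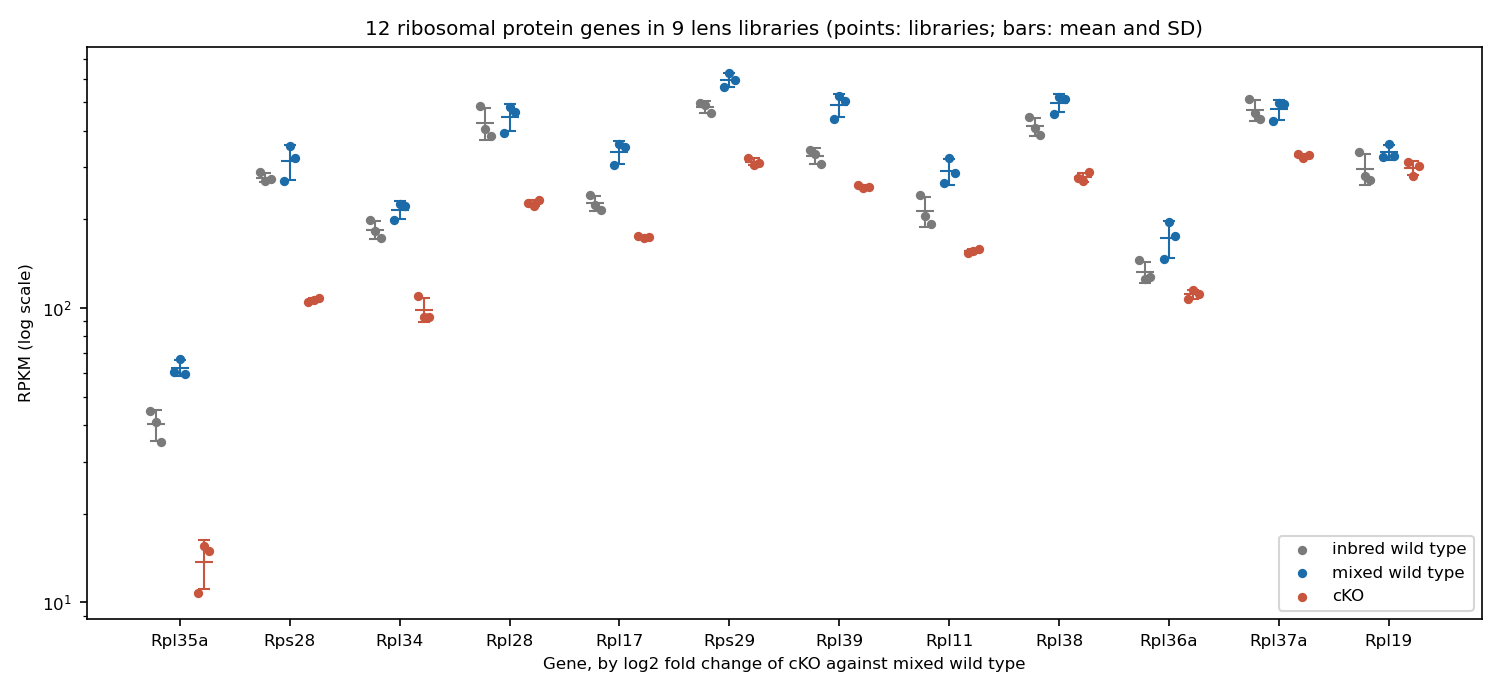
RPKM (log scale) of the 12 genes in each of 9 libraries, ordered by the log2 fold change of cKO against mixed wild type; points are libraries, bars the mean and SD of 3. For every gene but Rpl19 the cKO points lie under those of both wild types.

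The libraries of a group also varied together. In mixed wild type all 12 genes were highest in replicate 2, where 33.2% of the 190 genes were, and 11 were lowest in replicate 1, where 30% of the 190 were. In cKO no library was highest for all of them, and the median coefficient of variation of the 12 was 2.39%, against 8.19% in mixed wild type. Over all 190 genes the medians were 8.06% in cKO and 9.53% in mixed wild type. The summed RPKM of the 12 was 3853, 4542 and 4312 in the mixed wild type libraries and 2394, 2320 and 2386 in cKO.

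Values of red cell genes moved in the same direction. Of 8 erythroid markers, 2 were in the short files, Hba-a2 and Hba-x, and their summed level was 398 to 538 RPKM in mixed wild type and 84.6 to 144 RPKM in cKO. In inbred wild type 6 of the 8 were listed, at a sum of 1069 to 1114 RPKM, which cannot be set against the sums of 2 genes. Hba-a2 alone had a mean of 392 RPKM in inbred and 476 RPKM in mixed wild type. For Hba-x the means were 4.62 RPKM in inbred and 6.70 RPKM in mixed wild type. Of 4 endothelial markers Tek was in the short files, at 2.51 to 2.82 RPKM in mixed wild type and 7.84 to 8.61 RPKM in cKO. Of 3 neuronal markers Elavl4 was, at 2.69 to 3.18 and 0.39 to 0.67 RPKM. The mixed wild type libraries were also deeper than those of cKO. The part of these cell types or of depth in the fall of the ribosomal protein genes was not tested, and in pooled tissue fewer cells of a type and less RNA per cell cannot be told apart.

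The authors' normalized values gave a lower ratio of cKO to mixed wild type than RPKM did in each of the 12 genes and in 170 of 176 other genes (96.6%), so that this direction was common to the list. For Rpl34 they were 2344, 2764 and 2676 in mixed wild type and 121, 84.4 and 113 in cKO. This is a 24.5-fold difference, where RPKM gave 2.18-fold. Rpl39 differed 6.87-fold against 1.89-fold, Rpl35a 7.33-fold against 4.55-fold and Rpl11 4.28-fold against 1.87-fold.

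Rpl19 had low normalized values in both groups, 118, 170 and 120 in mixed wild type and 33.1, 27.8 and 30.0 in cKO, a difference of 4.49-fold against 1.13-fold by RPKM. All genes of the short files differed by at least 2.505-fold in this measure, so that a large fold in it is a property of the list and no finding. The size of the gap was set beside that of the other genes: the log2 ratio by normalized values minus that by RPKM had a median of -0.999 in the 12 genes and -0.28 in 176 other genes with values above 0 in both groups. A gap of at least 1 log2 unit occurred in 6 of the 12 and in 5 of the 176 (2.84%). The gap also depends on the list, since a gene with a small RPKM fold could reach 2.505-fold only with a wide gap. By RPKM only 2 of the 12 differed by at least 2.5-fold. The contrast of gaps was thus partly set by how the list was made, and no conclusion is drawn from it.

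**Figure D5:**
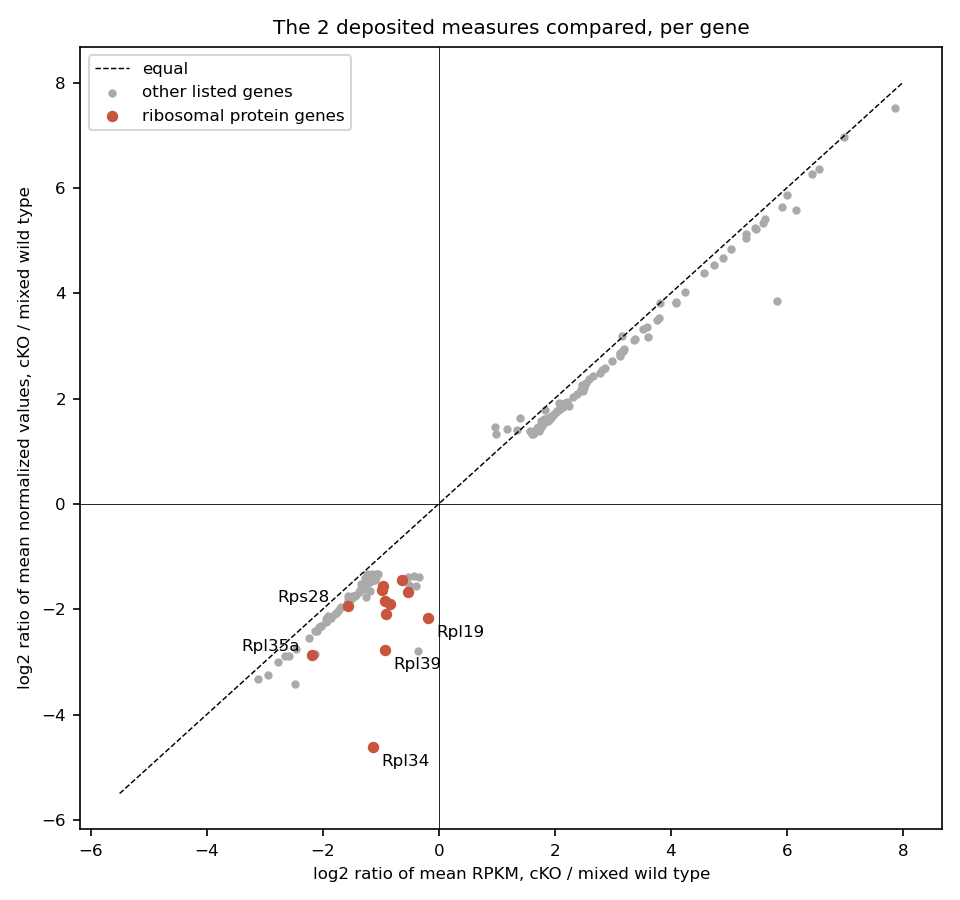
Log2 ratio of cKO to mixed wild type means by RPKM (horizontal) and by the authors' normalized values (vertical) for the 12 ribosomal protein genes and 176 other genes; the dashed line marks equal ratios. The 12 genes lie under the line by 0.38 to 3.49, with Rpl34 farthest from it and Rpl19 near 0 on the horizontal axis.

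In inbred wild type the 12 genes of the short files can be set beside the other canonical genes. Their median was 287 RPKM and that of the other 64 canonical genes 236 RPKM, with ranges of 40.2 to 482 and 7.93 to 1274 RPKM. They shared a median of 52.7% of their words with other genes, and the others 63.3%. In inbred wild type their normalized value per read was at most 37.0%, while 17 of the other 64 genes were higher than that. All 12 were under 50%, as were 14 of the 116 other genes (12.1%) found in all 9 libraries. These are descriptions of a selected list and were not tested.

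Setting mixed against inbred wild type asks how wild type lenses of different background differ. It also differs in floxed alleles, depth and file type, which cannot be told apart from strain. All 12 genes had a higher mean in mixed wild type, and 6 were called, each higher. In the background 49.2% of the 128 shared genes were called, 30.5% as higher and 18.8% as lower in mixed wild type, so the members' 50% in total was close to that of the whole list. Libraries did not overlap in 7 of the 12 genes and in 57% of the 128. A called fall of at least 0.5 on the log2 scale was found in no member and in 10.9% of the list. The members' median log2 fold change was 0.28, and that of all 128 genes 0.08.

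The called genes were Rpl35a, Rpl17, Rpl39, Rpl11, Rpl36a and Rps29. Rpl35a was at 44.6, 41.0 and 35.0 RPKM in inbred wild type, under all 3 mixed wild type libraries (1.55-fold, log2 difference 0.63 with SE 0.11, adjusted p 0.00142 by limma). Rpl39 was at 345, 334 and 307 RPKM in inbred and 440, 525 and 504 RPKM in mixed lenses (log2 difference 0.57 with SE 0.11, adjusted p 0.00217 by limma). Rpl17 was at 242, 224 and 215 RPKM in inbred and 305, 360 and 351 RPKM in mixed lenses (log2 fold change 0.57, adjusted p 0.00183 by limma). These 3 genes kept their call in each alternative of this comparison.

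The remaining calls were weaker. Rpl11 had a log2 difference of 0.45 (standard error 0.12, adjusted p 0.0116 by limma), Rpl36a of 0.37 (SE 0.12, adjusted p 0.0257 by limma) and Rps29 of 0.31 (SE 0.10, adjusted p 0.0257 by limma). Rpl36a and Rps29 were no longer called without inbred replicate 2 or 3 or mixed replicate 2 or 3. Rpl11 was lost without inbred replicate 3 (adjusted p 0.0505 by limma), which left 3 called members. Without inbred replicate 1, or without mixed replicate 1, 8 were called. With all libraries scaled to the median of the genes, 3 were called.

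Rpl37a overlapped between the wild types, with 470 ± 39.4 RPKM in inbred and 473 ± 36.1 RPKM in mixed lenses (SD, n = 3, adjusted p 0.970 by limma, 95% interval of the log2 fold change -0.23 to 0.25). Rpl28 (adjusted p = 0.636), Rps28 (0.212), Rpl19 (0.171), Rpl34 (0.0838) and Rpl38 (0.0586) were not called by limma either, and under quantile normalization Rpl28, Rpl34, Rpl37a and Rps28 had the opposite sign. In that alternative 6 members were called, 4 higher and 2 lower.

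Against inbred wild type, cKO lenses were lower in 11 of 12 genes, and these 11 were called. In the background 93.8% of the 128 genes were called, 60.9% as lower and 32.8% as higher in cKO. Libraries did not overlap in 11 of the 12 genes and in 93.8% of the 128, and a called fall of at least 0.5 on the log2 scale was found in 7 members and 53.9% of the list. The members' median log2 fold change of -0.54 was near the -0.57 of all 128 genes. This comparison shares the cKO libraries with the first and the inbred libraries with the second, and its values are no independent support for either.

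Rpl35a (log2 difference -1.53 with SE 0.13, adjusted p 4.36e-08 by limma) and Rps28 (-1.38, SE 0.08, adjusted p 1.19e-09 by limma) again had the largest falls, of 2.93-fold and 2.60-fold. Rpl34 and Rpl28 each had a log2 fold change of -0.90, from 184 ± 13.1 to 98.7 ± 9.30 RPKM and from 425 ± 51.8 to 227 ± 4.79 RPKM (SD, n = 3). Rps29 (-0.62), Rpl38 (-0.57), Rpl37a (-0.51), Rpl11 (-0.45), Rpl17 (-0.38) and Rpl39 (-0.34) followed. Rpl36a had the smallest called fall, from 132 ± 11.0 to 111 ± 3.95 RPKM (log2 difference -0.25 with SE 0.09, adjusted p 0.0145 by limma), and it was not called without cKO replicate 1 (adjusted p 0.0537 by limma).

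Rpl19 was at 338, 281 and 272 RPKM in inbred wild type and at 299 ± 15.8 RPKM (SD, n = 3) in cKO, with overlapping groups (log2 fold change 0.01, 95% interval -0.20 to 0.23, adjusted p 0.892 by limma). It was called lower under median centring (-0.33) and higher under quantile normalization (0.45). Quantile normalization left 7 called members, since Rpl11, Rpl17, Rpl36a, Rpl37a and Rpl39 were then not called.

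In 11 of the 12 genes the mean was highest in mixed wild type, intermediate in inbred wild type and lowest in cKO, and in Rpl19 the inbred and cKO means were within their spread. All 3 differences were called for Rpl35a, Rpl17, Rpl39, Rpl11, Rpl36a and Rps29. Rpl28, Rpl34, Rpl37a, Rpl38 and Rps28 were called lower in cKO than in each wild type, and their difference between the wild types was not called. Whether these genes differ from the first 6 was not tested.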

How the data were processed

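RNA of 9 lens libraries was sequenced. Per the labels' protocols, total RNA went into Illumina TruSeq libraries, and the submitters' processing notes name CASAVA 1.8.2. For aligner, build and annotation: not given in the sources used here. The authors deposited RPKM per gene and library, a normalized expression value (a score with no stated unit) and, in the inbred files, exon lengths, per the file headers. Of 7700 inbred rows, 24 with repeated symbols were left out.

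The test was limma 3.58.1 in R 4.3.3, applied to log2(RPKM + 0.5) and allowing a mean-variance trend. Genes averaging 1 RPKM or more over both groups entered, and p-values were adjusted by Benjamini-Hochberg over all genes tested, with calls at 0.05. Folds are ratios of mean RPKM. With 3 libraries in each group, the smallest p of an exact permutation test is 0.1. P-values measure the spread between libraries of pooled lenses. The script was tested on simulated data. Replicates differed by more than sampling noise (chi-square per degree of freedom 6.97 to 54.5). Reads are RPKM times exon length times depth, and low values were whole reads within 0.1 for at least 95% of those used.

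All 12 members of the short files are named. Of the 82, those with the 10 highest and 8 lowest levels, 5 highest and lowest coefficients of variation, 5 lowest and 3 highest normalized values per RPKM, all stalk genes, Rpsa, Rps6 and all relatives are named. Results of some genes that this rule or the lists take in are not reported here. The ranking of normalized values per read was added after seeing the data, because the ratio to RPKM moves with exon length. Members, lists and rules were chosen with earlier results of these data known. Alternatives were other pseudocounts (0.1 and 1), filters, scalings, no trend, a joint fit of all 9 libraries, a replicate block, normalized values, and each library left out. Scaling to the other genes, the restriction to genes in all 9 libraries and principal transcript lengths were added after seeing the data. The principal transcript was the best supported, then longest, APPRIS principal transcript of GENCODE M21. Other steps used Python 3.11.15 (numpy 2.4.6, scipy 1.17.1, pandas 2.3.3).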

Additional observations from a re-analysis of the deposited data

How the results depend on the processing

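The number of called ribosomal protein genes in cKO against mixed wild type was 11 to 12 with a library left out and in every other alternative run. This count ignores direction: under quantile normalization 9 were called lower and 2 higher. In mixed against inbred wild type it was 6, with 3 to 8 when a library was left out and 3 under median centring. In cKO against inbred wild type it was 11, with 10 to 11 when a library was left out and 7 under quantile normalization. Signs reversed for Rpl19 (0.44) and Rpl37a (0.11) in cKO against mixed wild type under quantile normalization. In mixed against inbred wild type they reversed under quantile normalization for Rpl28 (-0.12), Rpl34 (-0.018), Rpl37a (-0.19) and Rps28 (-0.15), under median centring for Rpl28 (-0.078) and Rpl37a (-0.14), and with scaling to the other genes for Rpl28 (-0.040) and Rpl37a (-0.10). Leaving out a library gave Rpl37a -0.043 to 0.073 there and Rpl19 -0.046 to 0.11 in cKO against inbred wild type. In the latter, signs also reversed for Rpl36a (0.10) under quantile normalization and for Rpl19 under median centring (-0.33) and scaling to the other genes (-0.36). The cause of these changes was not tested.

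The share of summed RPKM in inbred wild type, 4.74%, was 4.64% to 4.84% with a library left out, 4.96% among genes of at least 10 RPKM, 12.2% without crystallins and 3.48% as reads. The median of 223 RPKM was 214 to 228 with a library left out, 249 over canonical genes and 385 per principal transcript length. The labels give the groups the same replicate numbers. Deviations of same-numbered libraries from their group means had correlations of -0.52 to 0.24. With 3 libraries in each group and a selected list of genes, these values cannot decide whether the numbers pair libraries. The main test used no pairing. With the number as a replicate block, 11 members were called in cKO against either wild type and 4 in mixed against inbred wild type, where Rpl36a (limma adjusted p = 0.0592) and Rps29 (0.0794) were lost. Each of the 12 genes had at least 1038 reads in every library, as computed from RPKM. The part of the difference in depth between groups was not tested.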
